A study of Mus musculus with 22 samples.

Results

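Across the mouse autosomes, 864 windows of 1 kb carried more DNA methylation in Rlf mutant embryos than in wild-type embryos at E10.5 (embryonic day), with little or no difference between the genotypes in fetal liver at E14.5 and E18.5. They were picked from 574,594 windows, called tiles here, in which 8 or more CpGs had 6 or more reads each in all of 12 whole genome bisulphite sequencing (WGBS) libraries. The methylation level of a tile was the number of unconverted cytosines over all reads at those CpGs, as a percentage. A tile was kept when the lower of the 2 mutant embryos exceeded the higher of the 2 wild-type embryos by at least 10 percentage points (the gap), and when the mean of the mutants was within 5 points of the mean of the wild types in the livers of each stage. The 864 tiles were 0.150% of the eligible tiles. Because the levels of all 12 libraries chose the tiles, these levels and their differences are given below as a description, without a test.

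The study compared Rlf+/+ animals (wild type) with Rlf MommeD28/MommeD28 animals (mutant), from intercrosses of heterozygotes kept inbred on Line3 FVB/NJ mice (strain FVB in the labels). MommeD28 is an allele induced by the mutagen ENU and was recovered in a screen for modifiers of epigenetic silencing. All animals, wild types included, carried the GFP transgene array used in that screen, which is driven by the human alpha-globin promoter with the HS-40 enhancer. WGBS was done on 2 whole male embryos per genotype at E10.5, on 2 livers per genotype at E14.5 (replicate 1 male and replicate 2 female in both genotypes) and on 2 female livers per genotype at E18.5, and RNA-seq was done on 3 livers per genotype at E14.5 (replicates 1 and 2 male, replicate 3 female). A whole embryo holds many tissues, while the fetal liver is a single organ whose mix of blood-forming cells and hepatoblasts shifts between these stages. The embryo and liver values therefore differ in stage, in cell make-up and in the sexes sampled, which cannot be told apart. No embryo RNA was analysed here, so their cell make-up could not be compared between the genotypes.

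In mammals, methylation of the cytosine in a CpG is set by the DNA methyltransferases and removed by dilution at replication or through the TET enzymes. Most CpGs are highly methylated, CpG islands at promoters are usually free of methylation, and active enhancers often hold intermediate levels that change from tissue to tissue. Rlf (rearranged L-myc fusion) encodes a large zinc finger protein found in the nucleus.

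The reads over CpGs summed to between 320,837,655 and 364,045,248 per library at E10.5, 630,846,851 and 712,342,341 at E14.5, and 347,425,974 and 358,354,940 at E18.5, which gave a median of 232 to 264, 473 to 524 and 263 to 267 reads per chosen tile. The fewest reads in any chosen tile and library were 52, summed over its CpGs, where a read over several CpGs counts at each. Between 0.0412% and 0.0775% of cytosines stayed unconverted in the unmethylated lambda DNA added to each library. Over all eligible tiles, 1 library stood apart, E18.5 mutant replicate 1, with a mean level of 70.8% against 66.6% to 67.2% in the other 3 E18.5 livers, and E14.5 wild type replicate 1 was the lowest of its stage with 60.9% against 63.3% to 64.4%.

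The following 6 stretches of 300 bases show what these tiles look like in sequence, taken from tiles with the widest gaps. The Sfxn1 stretch lies inside the gene near its start, the Zfp36 stretch lies beyond the gene's start, the Tnfaip2 and Nfic stretches are in tiles with coding exons, and the Gm572 stretch and the stretch on chromosome 5 lie between genes. All are the + strand of the mouse reference (build mm9), which is not the FVB strain, written 5′ to 3′, and capitals mark each CpG measured with at least 6 reads in all 12 libraries.
Sfxn1 chr13:54168011-54168310: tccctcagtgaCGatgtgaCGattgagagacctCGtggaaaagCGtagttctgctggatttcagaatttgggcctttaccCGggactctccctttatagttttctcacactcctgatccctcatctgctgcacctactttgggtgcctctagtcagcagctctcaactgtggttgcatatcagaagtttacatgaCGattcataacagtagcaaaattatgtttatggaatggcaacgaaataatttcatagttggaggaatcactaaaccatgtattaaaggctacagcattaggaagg
Tnfaip2 chr12:112687350-112687649: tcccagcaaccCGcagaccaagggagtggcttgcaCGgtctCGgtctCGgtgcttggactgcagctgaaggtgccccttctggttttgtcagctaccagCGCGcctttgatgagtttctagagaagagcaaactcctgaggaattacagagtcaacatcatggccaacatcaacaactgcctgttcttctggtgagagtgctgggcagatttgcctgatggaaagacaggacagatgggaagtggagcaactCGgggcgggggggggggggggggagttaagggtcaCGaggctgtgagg
Gm572 chr4:148057695-148057994: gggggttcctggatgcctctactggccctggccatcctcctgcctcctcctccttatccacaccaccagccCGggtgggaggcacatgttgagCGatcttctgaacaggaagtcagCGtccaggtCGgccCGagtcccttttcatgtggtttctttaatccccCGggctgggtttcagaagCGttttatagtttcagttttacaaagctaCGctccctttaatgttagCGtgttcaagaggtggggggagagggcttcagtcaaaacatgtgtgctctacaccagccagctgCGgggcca
Zfp36 chr7:29166135-29166434: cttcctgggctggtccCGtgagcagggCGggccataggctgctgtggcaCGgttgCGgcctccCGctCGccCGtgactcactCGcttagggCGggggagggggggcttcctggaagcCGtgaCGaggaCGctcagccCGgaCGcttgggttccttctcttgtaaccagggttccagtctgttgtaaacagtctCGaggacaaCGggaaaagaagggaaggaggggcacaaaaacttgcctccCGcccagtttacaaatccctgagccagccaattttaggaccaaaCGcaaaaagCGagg
Nfic chr10:80863094-80863393: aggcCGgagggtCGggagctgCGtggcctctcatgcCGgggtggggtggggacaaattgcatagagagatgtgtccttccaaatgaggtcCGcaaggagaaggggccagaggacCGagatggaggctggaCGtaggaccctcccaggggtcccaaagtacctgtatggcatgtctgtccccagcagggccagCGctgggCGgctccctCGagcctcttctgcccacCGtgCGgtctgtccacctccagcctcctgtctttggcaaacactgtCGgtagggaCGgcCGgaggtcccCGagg
chromosome 5 chr5:117345377-117345676: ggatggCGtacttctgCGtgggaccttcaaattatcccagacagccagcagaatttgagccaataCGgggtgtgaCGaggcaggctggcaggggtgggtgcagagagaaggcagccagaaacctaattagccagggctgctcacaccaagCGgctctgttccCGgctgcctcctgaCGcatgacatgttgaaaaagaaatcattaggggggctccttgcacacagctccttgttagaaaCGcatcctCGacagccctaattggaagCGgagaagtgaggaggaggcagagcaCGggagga

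The marked CpGs ranged from 6 in the Sfxn1 stretch to 19 in the Zfp36 stretch. Over the marked CpGs of the Sfxn1 stretch the level was 25.6% in wild-type and 59.4% in mutant embryos, and 2.77% and 4.25% in wild-type and mutant E14.5 liver. In the Zfp36 stretch the same means were 4.89% and 29.5% in embryos and 1.07% and 1.90% in E14.5 liver. These 2 stretches were almost unmethylated in liver of either genotype. The Tnfaip2 stretch was at 20.4% in wild-type and 58.0% in mutant embryos, and at 68.5% and 76.0% in E14.5 liver. This liver difference is beyond the limit of 5 points, which applied to the whole tile, where it was 3.74 points. The Gm572 stretch went the other way between tissues, from 59.4% and 86.2% in the embryos to 37.5% and 40.9% in E14.5 liver.

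Averaged over the 864 tiles, the methylation level was 53.0% and 54.0% in the 2 wild-type embryos and 68.9% and 69.0% in the 2 mutant embryos. The means were 53.5% ± 0.707 and 68.9% ± 0.0853 (SD, n = 2 each), a difference of 15.4 points, where the mean over all eligible tiles was 1.58 points higher in the mutants. In E14.5 liver the wild types were at 53.4% and 55.5% and the mutants at 56.8% and 55.8%, a difference of 1.84 points against 1.96 over all eligible tiles. It was 0.809 points without wild type replicate 1 and 2.87 without wild type replicate 2. In E18.5 liver the wild types were at 58.8% and 58.8% and the mutants at 61.9% and 58.5%, a difference of 1.41 points against 2.26 over all tiles. The mutant library at 61.9% is the one that stood apart, and without it the E18.5 difference was -0.254 points. The library averages of the genotypes overlapped in E18.5 liver, and in E14.5 liver both mutants lay above both wild types. In the embryos the median tile differed by 14.9 points. Between the 2 libraries of one group, a chosen tile differed by a median of 2.52 points in wild-type embryos, 2.22 in mutant embryos and 2.67 to 4.404 in the liver groups.

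**Figure D1:**
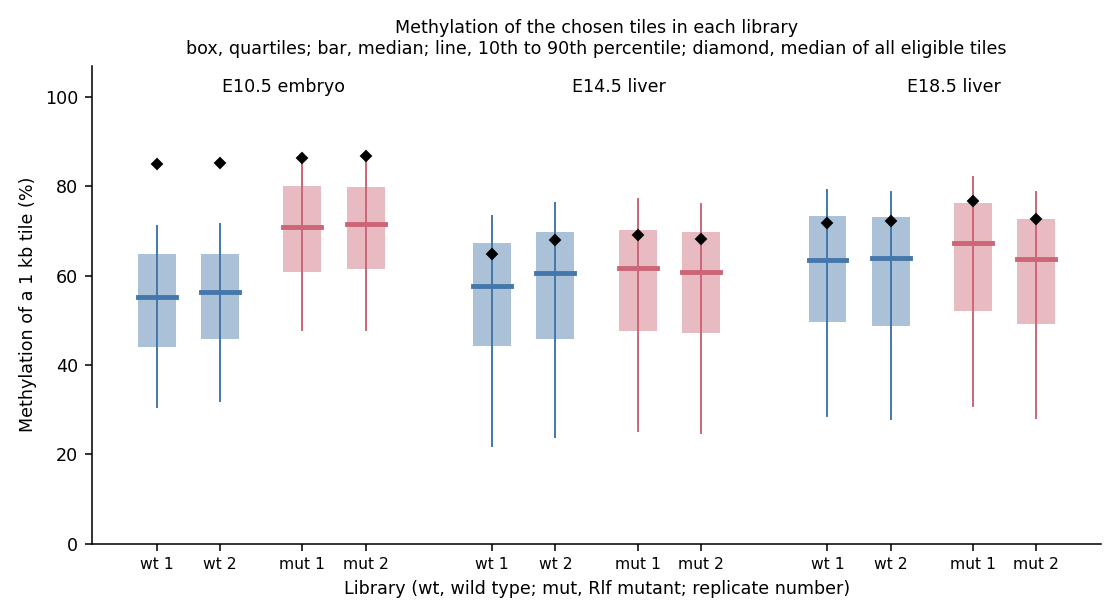
Methylation level (%) of the 864 tiles in each of the 12 WGBS libraries, by tissue and genotype, with the box at the quartiles, a bar at the median, a line from the 10th to the 90th percentile and a diamond at the median of all eligible tiles. The chosen tiles have medians of 55.3% and 56.4% in the wild-type embryos and 70.8% and 71.6% in the mutant embryos, and medians of 57.6% to 67.3% in the 8 livers.

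The gap ran from 10 to 31.0 points with a median of 11.7, and 497 of the tiles had a gap under 12, so that most lay close to the limit. Gaps of at least 15 points were found in 78 tiles and of at least 20 points in 14. Just inside the limit, the tile at chr10:98388001-98389000 was at 78.8% and 80% in the wild-type and 90% and 92.2% in the mutant embryos. Just outside it, the tile at chr11:119071001-119072000, with a gap of 9.99 points, was at 77.5% and 80.5% in the wild types and 90.5% and 90.8% in the mutants.

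The embryo part of the rule alone took 3,908 tiles, 0.680% of those eligible, and 3,044 of them were beyond the liver limit at 1 or both stages. The same rule with the genotypes exchanged took 24 tiles, 0.00418% of those eligible, in which the wild-type embryos averaged 64.9% and the mutants 50.7%. In E14.5 liver both mutants lay above both wild types in 284 of the 864 tiles (32.9%), beside 34.2% of all eligible tiles, and below them in 35 (4.05%), beside 6.50%. In E18.5 liver both mutants lay above in 153 tiles (17.7%), beside 31.2%, and below in 29 (3.36%), beside 6.46%. The rule limits the liver difference, so nothing is read from these counts.

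At the level of single CpGs, the tiles held 11,659 CpGs. The mutant mean was the higher one in embryos at 89.6% of them, against 50.01% of the CpGs of all eligible tiles, and at 61.5% in E14.5 and 57.6% in E18.5 liver, against 54.7% and 52.9% over all eligible tiles. Both mutant embryos were above both wild-type embryos at 60.9% of the CpGs in the chosen tiles, against 17.7% of those in all eligible tiles. In the median tile 90.9% of the CpGs had the higher mean in the mutant embryos, and in 271 tiles every one did. The rule chose the tiles on the reads of these same CpGs, so nothing is read from these shares.

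**Figure D2:**
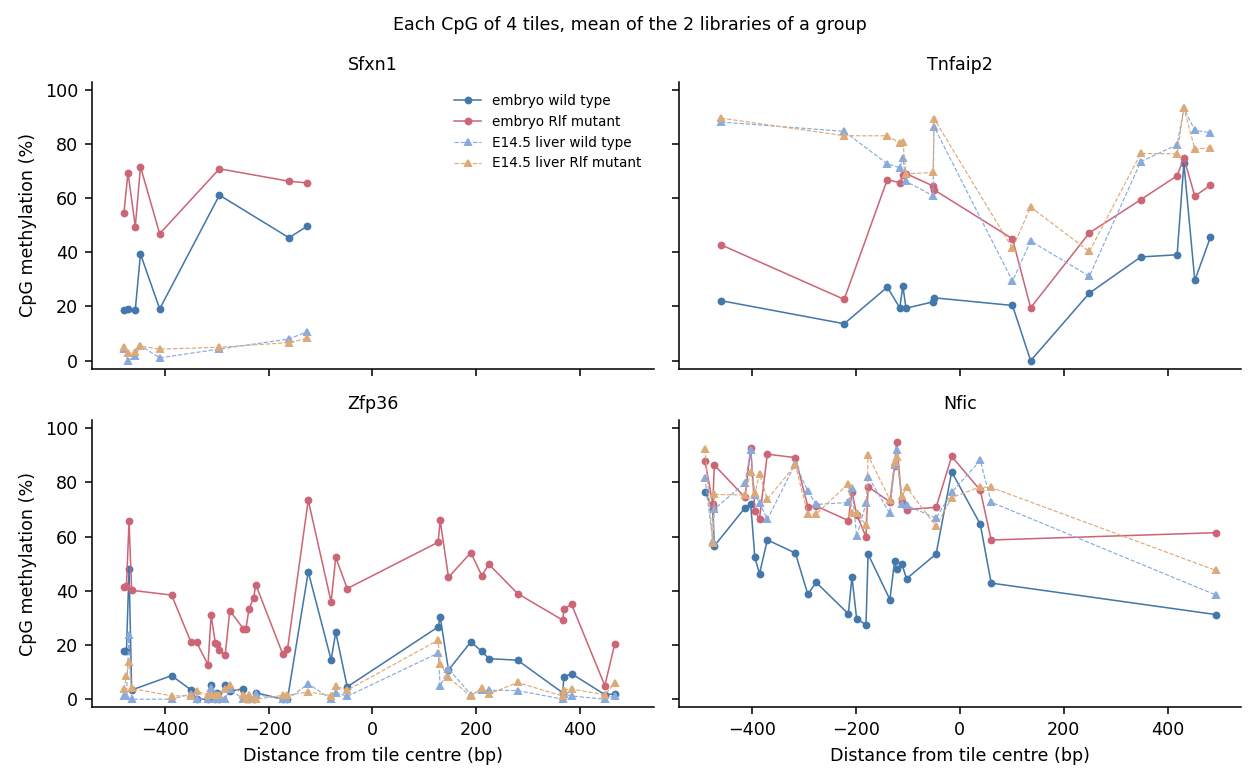
Methylation level (%) of each measured CpG in the Sfxn1, Tnfaip2, Zfp36 and Nfic tiles against its distance from the tile's centre (bp). Each point is the mean of the 2 libraries of a genotype, with circles for E10.5 embryos and triangles for E14.5 livers. In embryos the mutant mean lies above the wild-type mean at all 8 CpGs of the Sfxn1 tile and all 37 of the Zfp36 tile, and the highest CpG of the Sfxn1 tile in wild-type E14.5 liver is at 10.7%.

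Outside the tiles the genotypes lay closer in embryos, while in the livers they lay somewhat farther apart. In the CpGs within 500 bp outside the tiles the embryo difference was 5.14 points, at 500 to 1,000 bp it was 3.77, at 1 to 2 kb 3.27 and at 5 to 10 kb 2.53. In wild-type embryos the level rose with distance, from 53.5% inside the tiles to 63.8% within 500 bp and 72.3% at 5 to 10 kb. The mutant embryos were at 68.9% both inside and within 500 bp, and at 74.8% at 5 to 10 kb. Wild-type E14.5 liver was at 54.4% inside, 54.1% within 500 bp and 58.1% at 5 to 10 kb, and wild-type E18.5 liver was at 58.8%, 58.4% and 62.9%. At E14.5 the liver difference between the genotypes was 1.84 points inside, 2.93 within 500 bp and 2.42 at 5 to 10 kb. At E18.5 it was 1.41, 3.24 and 2.62 points. The rule chose the values inside the tiles, which by itself lowers the wild-type embryos there against the flanks and limits the liver difference there. The flanks come from the same libraries.

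**Figure D3:**
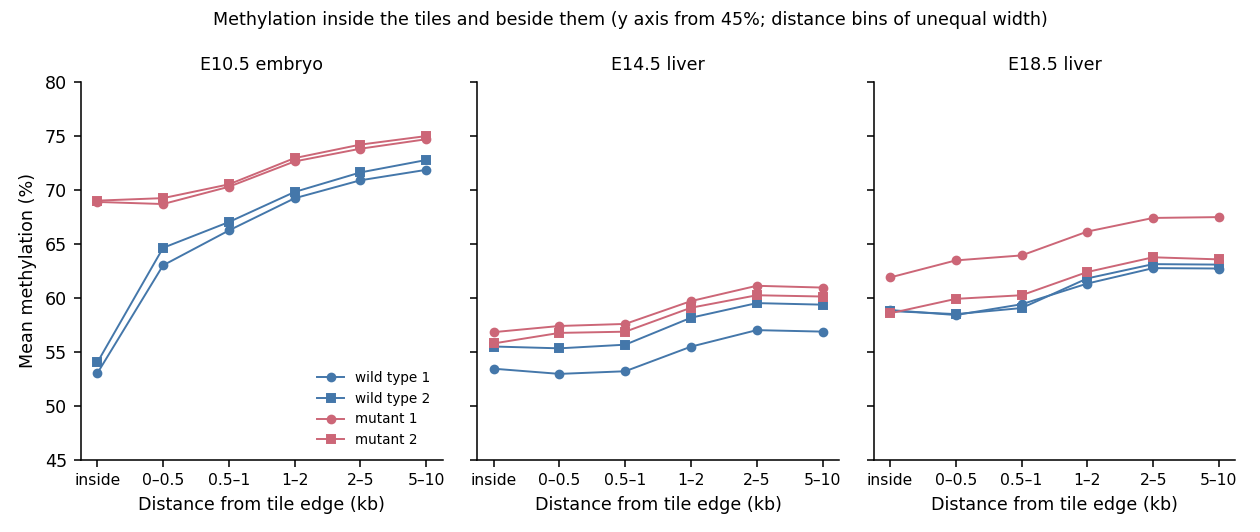
Mean methylation level (%, axis from 45%) inside the tiles and in CpGs at increasing distance from the tile edge (kb, bins of unequal width) with 1 panel for embryos and 1 for each liver stage, and 1 line per library. The wild-type embryos drop from a mean of 72.3% at 5 to 10 kb to 53.5% inside the tiles while the mutants go from 74.8% to 68.9%, and in E18.5 liver mutant replicate 1 runs above the other 3 libraries.

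The tiles were mostly single. Only 28 of them formed runs of adjacent tiles, 14 pairs in all, and 218 had another chosen tile within 100 kb. Of 1,007 eligible tiles directly beside a chosen one, 882 had the higher mean in mutant embryos, a larger share than the 67.6% of all eligible tiles. A gap of at least 10 points was found in 38 of the 1,007, a larger share than the 0.680% of all. The median embryo difference over the 1,007 tiles was 4.05 points, against 1.14 over all eligible tiles. In liver it was 2.58 points against 1.74 at E14.5 and 2.71 against 2.01 at E18.5. A pair lay in Tnfaip2 (chr12:112687001-112689000), which encodes a protein induced by tumour necrosis factor, a pair in Tpcn1 (chr5:121010001-121012000), which encodes an ion channel of endosomes and lysosomes, and a pair in an intron of Msi2 (chr11:88237001-88239000), which encodes an RNA-binding protein of stem cells. In the pair in Msi2 the wild-type embryos were at 54.2% and 60.2% in the first tile and 45.8% and 46.7% in the second, and the mutants at 78.8% and 75.7%, then 65.1% and 67.4%.

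By position in the gene annotation, 386 tiles (44.7%) were intronic against 34.2% of all eligible tiles, 359 (41.6%) lay between protein-coding genes against 44.0%, 97 (11.2%) overlapped an exon without a transcription start site (TSS) against 18.1%, and 22 (2.55%) held a TSS against 3.82%. Within 2.5 kb of a TSS lay 129 tiles (14.9%), close to the 13.0% of all eligible tiles. CpG islands, defined from sequence, overlapped 45 tiles (5.21%, against 5.82%), and 84 tiles (9.72%) lay on island shores, within 2 kb of an island, against 4.82%. Of the 358 tiles with a gap of at least 10 points in all 3 tissues, 31.0% lay within 2.5 kb of a TSS, 33.2% on islands and 13.1% in introns. The shore share was also above that of all eligible tiles in other embryo-gaining tiles, at 11.7% of these 358 tiles and 12.9% of the 3,044 tiles that gained in mutant embryos with a liver difference beyond the limit. Median GC content was 48.1% in the chosen tiles and 46.9% in all eligible tiles, and the median number of measured CpGs was 12 against 11. These shares are described and were not tested.

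Of 10 short motifs searched on both strands of the tiles, TAATTA was found in 25.3% of the chosen tiles and 20.6% of all eligible tiles, GGGCGG in 26.6% and 20.1%, CAGCTG in 46.9% and 42.6%, and ACAAAG in 63.1% and 58.9%. AGATAA was found in 39.0% and 40.1%, CACGTG in 19.9% and 17.0%, CATTCC in 45.9% and 43.3%, ATCAAAG (which shares its last letters with ACAAAG) in 17.0% and 14.9%, CCGGAAG in 7.29% and 6.28%, and TGACGTCA in 0.810% and 1.14%. In the tiles that gained in all 3 tissues the share with GGGCGG was 51.4%. GC content and CpG number differ between these sets, and their part in the shares was not tested.

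In wild-type animals, the liver level of the chosen tiles was a median of 3.78 points above their embryo level, whereas over all eligible tiles the liver was a median of 13.3 points below. Taking a difference of 10 points as the limit, the mean of the wild-type livers was higher than that of the wild-type embryos in 280 chosen tiles (32.4%, against 2.45% of all eligible tiles and 17.6% of the 3,044 tiles with the same embryo gap but a liver difference beyond the limit), within 10 points in 435 (50.3%, against 32.3% and 55.9%) and lower in 149 (17.2%, against 65.2% and 26.4%). The wild-type liver reached or passed the mutant embryo in 179 tiles (20.7%, against 7.69% of all eligible tiles and 8.44% of those 3,044). The rule took tiles with low values in wild-type embryos, which by itself raises liver minus embryo, so these shares also depend on the embryo level.

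Chosen tiles were most frequent at intermediate embryo levels, 14.4 per 1,000 eligible tiles where the wild-type embryos were at 40% to 60% and 8.29 at 20% to 40%, against 0.977 below 20% and 0.0155 above 80%. A gap of 10 points has no room near 100%. Between 40% and 60%, the liver was higher by at least 10 points in 43.0% of the chosen tiles and in 20.4% of the eligible tiles of that level. Between 60% and 80%, the shares were 14.8% and 1.48%. The rule used these same wild-type embryo and liver values, so it also acts within a level and nothing is read from these shares. Within the 280 tiles with the higher liver level, the embryos went from 47.5% in wild type to 63.9% in mutants, and the E14.5 livers were at 66.1% and 67.8%. Within the 149 tiles with the lower liver level, the embryos went from 55.96% to 71.2% and the E14.5 livers were at 31.4% and 33.6%. The embryo difference was 16.4 points in the first class, 15.2 in the second and 14.9 in the 435 tiles within 10 points. A low wild-type embryo value both places a tile in the first class and widens this difference, so nothing is read from the order.

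**Figure D4:**
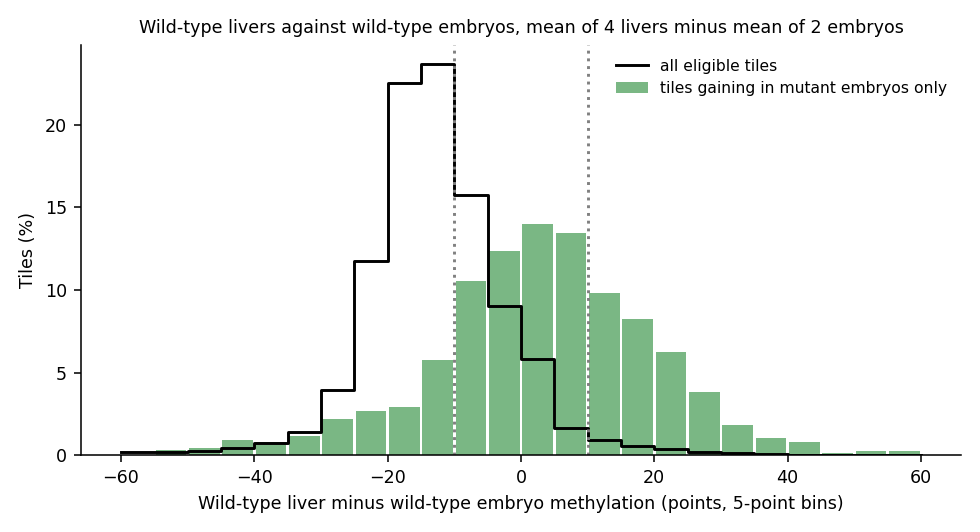
Wild-type liver minus wild-type embryo methylation (percentage points, in bins of 5) for the 864 chosen tiles (bars) and all eligible tiles (line), as the percentage of each set, with dotted lines at 10 points either way. The chosen tiles have a median of 3.78 points and the eligible tiles of -13.3.

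The widest gap, 31.0 points, was in Sfxn1 (ENSMUSG00000021474), which encodes a mitochondrial serine transporter. The tile, chr13:54168001-54169000, is intronic, is 787 bp from the nearest TSS and lies 81 bp from a CpG island. The wild-type embryos were at 29.1% (95% Wilson interval 22.6 to 36.6, 158 reads) and 29.3% (23.0 to 36.6, 167 reads), and the mutants at 61.4% (52.7 to 69.4, 127 reads) and 60.3% (53.0 to 67.2, 179 reads). These intervals cover counting error only and take every read at every CpG as independent. A read over several CpGs counts at each, so the intervals can be too narrow even for that. All 4 E14.5 livers were between 3.54% and 5.39% and the E18.5 livers between 2.23% and 9.47%, the highest being the library that stood apart.

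In the tile over coding exon sequence of Tnfaip2 (chr12:112687001-112688000) the wild-type embryos were at 31.4% and 31.9%, the mutants at 56.7% and 60.2%, and the livers between 69.9% and 76.7%. Near the TSS of Zfp36, which encodes tristetraprolin, a protein that speeds the decay of cytokine mRNAs, the tile at chr7:29166001-29167000 held 37 measured CpGs. Its wild-type embryos were at 11.003% and 9.65% and its mutants at 33.4% and 37.7%. The E14.5 livers were between 2.22% and 5.06%, so the tile was low in every sample other than the mutant embryos. In the tile of Nfic (chr10:80863001-80864000), a nuclear factor I gene, the wild-type embryos were at 51.1% and 48.2%, the mutants at 76.9% and 73.0%, and the livers between 72.3% and 84.2%.

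The tile in an intron of Maff, which encodes a small Maf transcription factor, was at 39.9% and 38.8% in the wild-type embryos and 61.0% and 63.1% in the mutants (chr15:79182001-79183000). Its livers lay between 34.2% and 43.8%. In the tile 39,575 bp from the TSS of Gm572 (chr4:148057001-148058000) the wild types were at 56.4% and 62.5% and the mutants at 85.8% and 86.6%, and the livers were all between 33.6% and 43.7%. In an intron of Bnc2, a zinc finger gene, the levels were 60.3% and 62.3% in wild types and 83.1% and 84.0% in mutants. The other 3 of the 10 widest gaps lay farther than 50 kb from any protein-coding TSS, on chromosomes 5, 8 and 18, with differences of 27.4, 22.5 and 26.7 points.

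Among tiles within 1 kb of a TSS, the widest gaps after Sfxn1 were in introns of Lgr6, Cyb5b, Susd3 and D19Ertd386e. Lgr6 encodes a receptor for R-spondins, which strengthen Wnt signals. Its tile (chr1:137000001-137001000) was at 12.8% and 16.6% in the wild-type embryos, 36.2% and 39.3% in the mutants and between 16.2% and 30.7% in the livers. The tile of Cyb5b, a cytochrome b5 of the outer mitochondrial membrane, was at 43.9% and 44.3% against 63.8% and 69.4% in the embryos. In Susd3 the embryo levels were 53.7% and 53.2% against 73.3% and 72.4%, and in D19Ertd386e 39.6% and 40.0% against 57.5% and 63.6%. In each of these 5 tiles the liver genotypes differed by under 5 points, as the rule required.

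Grouped by gene, 505 tiles overlapped a protein-coding gene, 192 were assigned to the nearest TSS within 50 kb and 167 had no gene that near, which gave 599 genes. Per 1,000 eligible tiles assigned to genes, 1.53 were chosen over all genes. The frequency was 4.03 for the list of developmental transcription factors (homeobox, paired, T-box, forkhead, Sox, GATA and Zic; 20 tiles in 15 genes), 4.46 for the BMP and TGF-beta pathway (8 tiles), 3.98 for axon guidance genes (14 tiles), 2.72 for the Wnt pathway (5 tiles) and 1.42 for collagens (3 tiles). Hox genes held 2 tiles of 361 eligible, the FGF pathway 2 of 858, the Hedgehog pathway 1 of 439, the Notch pathway 1 of 589 and clustered protocadherins 1 of 242. Neither erythroid genes (62 eligible tiles) nor DNA methylation enzymes (351) held one. The lists were chosen with results of these data known and were not tested.

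Of the transcription factors, Hoxa7, which patterns the body axis, had a tile over coding exon sequence and an island (chr6:52165001-52166000) at 2.90% and 2.097% in the wild-type embryos and 20.2% and 19.2% in the mutants. Its E14.5 livers were between 5.04% and 9.21% and its E18.5 livers between 11.1% and 17.2%. A tile in an intron of Hoxa3 went from 10.47% and 6.67% in wild-type embryos to 21.1% and 19.4% in E14.5 and 54.9% and 53.3% in E18.5 wild-type liver, and was at 22.3% and 21.3% in the mutant embryos. In an intron of Meis1, which encodes a cofactor of Hox proteins, the wild-type embryos were at 39.5% and 46.3%, the mutants at 69.8% and 60.1% and the E14.5 livers between 2.92% and 6.78%. The Sox13 tile went from 63.6% and 64.5% to 84.8% and 79.0% and the Foxo3 tile from 62.1% and 64.1% to 79.9% and 78.02%.

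In signalling pathways, the Fzd7 tile, 30,991 bp from the TSS of this Wnt receptor gene, went from 74.6% and 72.4% in wild-type to 91.6% and 86.3% in mutant embryos. The tile 18,663 bp from the TSS of Axin2, a scaffold of the complex that degrades beta-catenin, went from 75.6% and 69.4% to 87.4% and 88.1%. Smad1 and Smad9 encode transcription factors that carry BMP signals, and Smad7 encodes an inhibitor of TGF-beta receptors. The Smad1 tile was at 31.7% and 31.9% in wild-type embryos, 49.8% and 46.6% in mutants and 48.0% to 62.1% in the livers. The Smad9 tile went from 70.2% and 69.3% to 83.4% and 85.1%, and Smad7 held 3 chosen tiles of 72 eligible. Among ligands and receptors of other pathways, the Fgf3 tile went from 48.7% and 50% to 62.7% and 61.2% and the Fgfr2 tile from 46.8% and 49.4% to 67.5% and 60.3%. Both lie between genes, 13,988 bp from the TSS of Fgf3 and 21,679 bp from that of Fgfr2. The tile of Gli2, the Hedgehog effector, went from 50.6% and 56.5% to 72.4% and 68.4%. A tile 14,295 bp from the TSS of Lfng, which modifies Notch receptors, went from 65.3% and 67.8% to 79.9% and 78.7%.

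The tiles assigned to the axon guidance genes Sema6b, Slit1 and Sema4b had embryo differences of 17.7, 17.2 and 17.4 points. Those of Sema6b and Slit1 lie between genes, 6,235 and 1,846 bp from the TSS. The Sema4b tile was at 40.0% and 42.4% in wild-type embryos, 56.7% and 60.5% in mutants and 69.1% to 79.1% in all livers. The Pcdhgc5 tile had a difference of 11.4 points. Of the collagens, the tile near Col1a1 went from 41.1% and 40.9% to 58.4% and 53.0%. The Col23a1 tile and a tile 18,088 bp from the TSS of Col6a1 had differences of 12.9 and 11.1 points. Prdm16, a zinc finger regulator of cell fate, held 5 of its 253 eligible tiles, and Jak3, a kinase of cytokine receptors, held 3 of 12. In all, 78 genes held 2 or more.

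RNA from E14.5 liver gave a measurement that the choice of tiles did not use, although it comes from another tissue and stage than the embryo difference. The question was whether genes with a chosen tile differed in transcript level between the genotypes. The 6 libraries held between 12,928,313 and 14,621,004 counts. Rlf itself was at 70.0, 72.2 and 68.8 CPM (counts scaled by library size) in wild types and 76.2, 79.7 and 67.5 in mutants (log2 fold change 0.08, adjusted p = 0.646, edgeR), and gene counts do not read the ENU allele. Of 14,183 genes tested with edgeR's quasi-likelihood test, 197 (1.39%) passed a Benjamini-Hochberg adjusted p of 0.05, 99 (0.698%) higher and 98 (0.691%) lower in the mutants.

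Of the 599 genes with a chosen tile 450 were expressed enough to be tested, and 9 of them (2%) passed, beside the 1.39% of all genes. Of these 9, 7 were higher (1.56%) and 2 lower (0.444%). These counts depended on single livers, with 0 higher and 1 lower without wild type replicate 1 or without mutant replicate 1, 2 higher and 1 lower without wild type replicate 3, mutant replicate 2 or mutant replicate 3, and 6 higher and 2 lower without wild type replicate 2. The calls over all genes fell too, from 99 higher and 98 lower to 35 and 59 without wild type replicate 1, 27 and 39 without mutant replicate 1, and between 45 and 62 higher and 43 and 62 lower without wild type replicate 3, mutant replicate 2 or mutant replicate 3, while without wild type replicate 2 they were 97 and 127. With the replicate number as a block, 460 of the 14,183 genes passed, 263 higher and 197 lower. Among them were 21 of the 450 with a chosen tile, 18 higher and 3 lower. The median log2 fold change was 0.05 over the 450 genes and -0.0017 over all genes tested, and 72 of the 450 (16.0%) had an unadjusted p under 0.05 against 14.6% of all genes. Among the hepatoblast markers tested, none of which passed, the summed level was 55,631 to 66,142 CPM in wild types and 68,087 to 78,975 in mutants, without overlap. Most of this sum was Alb, with means of 26,622 and 32,130 CPM in wild types and mutants, and Afp, with 29,770 and 33,705. Over the 8 markers the median log2 fold change was 0.11, and Krt8 was at -0.04. The part of the summed level in the gene counts was not tested. The summed erythroid markers lay between 25,599 and 48,883 CPM in wild types and 32,617 and 35,125 in mutants. Over the 6 erythroid markers the median log2 fold change was -0.14, from -0.26 (Hba-a1) to -0.09 (Slc4a1). The endothelial markers summed to 250.1 to 275 CPM in wild types and 274 to 324 in mutants, the mesenchymal to 522 to 678 and 554 to 844, and the macrophage to 247 to 272 and 249.5 to 267, and no marker of these lists passed either. The 3 neural markers found summed to 17.0 to 24.1 CPM in wild types and 18.7 to 26.4 in mutants, most of it Nes, with a mean of 18.9 and 21.2, while Sox2 was near 0 at 0.0721 and 0.143. In these whole livers, fewer cells of a type and less RNA per cell cannot be told apart.

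Tcf7l2, which encodes a transcription factor that works with beta-catenin in Wnt signalling, had the smallest adjusted p of these genes and was lower in the mutants. It was at 37.4, 31.5 and 35.4 CPM in wild types and 18.4, 16.6 and 19.6 in mutants, with no overlap between the genotypes. Its log2 fold change was -0.93 (SE 0.09, adjusted p = 0.000541, edgeR with Benjamini-Hochberg), and it passed in all 11 alternative analyses. The gene held 2 chosen tiles, both intronic. The tile at chr19:55900001-55901000 was at 64.6% and 66.9% in wild-type embryos, 80.4% and 80.9% in mutants, and 76.5% to 81.9% in the 4 E14.5 livers. The tile at chr19:55968001-55969000, 24 bp from an annotated TSS, was at 52.9% and 52.2% in wild-type embryos, 63.4% and 66.5% in mutants, and 75.1% to 78.5% in the E14.5 livers. At E14.5 the genotypes differed by 2.14 and 1.70 points in these tiles.

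The other 8 genes passed more narrowly, with adjusted p between 0.0176 and 0.0497 (edgeR, Benjamini-Hochberg). Plcl2, which encodes a phospholipase C-like protein, was lower, at 22.9, 26.1 and 22.1 CPM in wild types and 17.4, 17.8 and 17.5 in mutants. Zbtb20, a zinc finger repressor known in liver for the silencing of alpha-fetoprotein, was higher, at 6.33, 6.20 and 5.95 CPM against 12.6, 9.87 and 9.68. Egln3, a prolyl hydroxylase of the hypoxia pathway, was higher, at 5.79, 8.38 and 6.59 CPM against 10.6, 11.6 and 11.1. Alox12, a lipoxygenase, Akap12, an anchor of protein kinase A, Ston2, a protein of endocytosis, Cpm, a carboxypeptidase, and Treml2, a receptor of myeloid and lymphoid cells, were higher by log2 fold changes of 0.56, 0.47, 0.48, 0.39 and 0.30. Each of these 8 genes lost its call in some of the 11 alternatives, and between 4 (Plcl2) and 8 (Zbtb20) of them kept it.

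The chosen tiles at these genes differed in their liver levels. The Treml2 tile (chr17:48439001-48440000), the one of the 9 genes with a tile that holds a TSS, was at 65.2% and 69.5% in wild-type embryos, 80.3% and 82.8% in mutants, and 8.74% and 13.3% in wild-type against 14.9% and 15.1% in mutant E14.5 liver. The intronic Plcl2 tile was at 31.7% and 28.7% in wild-type embryos, 53.3% and 46.4% in mutants and 48.1% to 52.8% in the E14.5 livers. The Zbtb20 tile was at 68.8% and 71.5% in wild-type embryos, 84.9% and 81.7% in mutants and 73.2% to 79.6% in the E14.5 livers. When only the gene with the TSS nearest to a chosen tile, and within 10 kb of it, was counted, 179 genes were tested and 3 (Treml2, Tcf7l2 and Alox12) passed, beside the 1.39% of all genes tested.

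Of the genes at the widest embryo gaps, none of those tested passed. Sfxn1 was at 178, 188 and 184 CPM in wild types and 168, 170 and 172 in mutants (log2 fold change -0.11, adjusted p = 0.444, edgeR). Tnfaip2, Zfp36 and Nfic had log2 fold changes of -0.03, 0.22 and 0.16 with adjusted p of 0.867, 0.418 and 0.418 (edgeR). Maff was at 9.07, 10.2 and 8.90 CPM in wild types and 16.9, 19.6 and 11.4 in mutants, without overlap, and missed the threshold with an adjusted p of 0.0542 (edgeR). Axin2 was at 3.20, 3.63 and 3.57 CPM against 2.40, 2.09 and 3.51 (adjusted p = 0.460, edgeR). By list, beside the 0.698% of all genes tested that were higher and the 0.691% that were lower, 0 genes rose and 1, Tcf7l2, fell of 30 Wnt pathway genes tested, 0 rose and 1 (Inhbc) fell of 43 BMP and TGF-beta genes, 2 (Efnb2 and Robo1) rose and 0 fell of 50 axon guidance genes, 1 (Sox9) rose and 0 fell of 49 developmental transcription factors, 1 (Col6a3) rose of 28 collagens and 1 (Dnmt3a, a de novo DNA methyltransferase) rose of 8 DNA methylation enzymes. Other than Tcf7l2, these genes have no chosen tile and are named after their values were seen. No Hox, FGF, Hedgehog, Notch, erythroid or clustered protocadherin gene passed, of 8, 15, 9, 16, 11 and 4 tested.

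**Figure D5:**
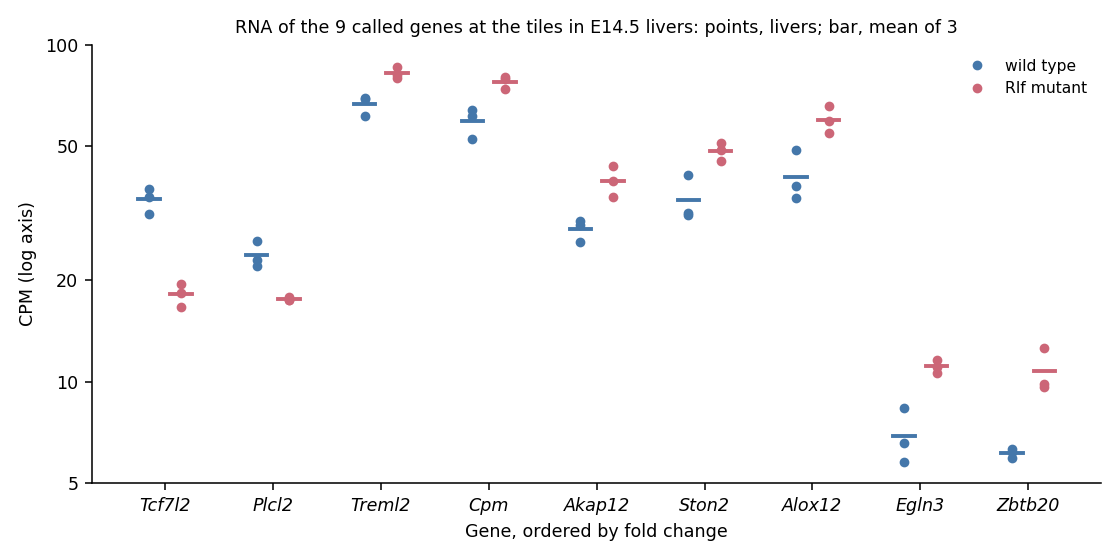
Transcript level (CPM, log axis) in E14.5 liver of the 9 genes with a chosen tile that passed the test, ordered by fold change, with 1 point per liver and a bar at the mean of the 3 livers of a genotype. Tcf7l2 and Plcl2 lie lower in the mutants and the other 7 genes higher.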

How the data were processed

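Per the labels and the study's methods, WGBS libraries were sequenced as 100 bp pairs and aligned with Bismark and Bowtie2 to mm9 carrying FVB variants, with duplicates removed and both strands of a CpG merged. The authors deposited the counts of unconverted and of all reads per CpG, and their rounded percent column was not used. RNA-seq reads (50 bp, poly(A)) were aligned with TopHat, and the deposited counts per Ensembl gene were made with HTSeq without regard to strand, so that overlapping and antisense genes cannot be told apart. H3K4me1 ChIP-seq was not analysed here.

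Counts were summed per 1 kb tile on chromosomes 1 to 19. Tiles were assigned to protein-coding genes that they overlap, or else to the nearest TSS within 50 kb, in a mouse gene annotation of the same build, after 2 transcripts over 2.5 Mb long (of Fgfr2 and Gm20388) were left out once their effect had been seen. CpG islands were windows of 500 bp with GC of at least 55% and observed over expected CpG of at least 0.65. Named tiles were those with the widest gaps of all and within 1 kb of a TSS, with at least 100 reads per library. Those with the widest gaps in each gene list and pairs of adjacent tiles were named without this minimum. Named genes are those at these tiles and those that passed the RNA-seq test. The members and lists were chosen with earlier results of these data known.

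RNA-seq counts were tested with edgeR 4.0.16 (quasi-likelihood, TMM, filterByExpr, Benjamini-Hochberg) in R 4.3.3, with DESeq2 1.42.0 as an alternative, and the scripts were tested on simulated data. The CPM values are TMM-scaled. Gene symbols were found for 21,368 of 37,991 gene IDs. Replicate numbers were shared between genotypes, and the deviations of same-numbered livers from their genotype means correlated by 0.125, 0.226 and 0.409, so the blocked count is given beside the result. The labels do not say what a number shares, apart from sex. The study gives the E14.5 WGBS livers as littermates and the RNA-seq livers as independent biological replicates. Between replicate libraries the counts differed by more than sampling noise (chi-square per degree of freedom 4.84 to 17.5).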

Additional observations from a re-analysis of the deposited data

How the results depend on the processing

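The count of 864 tiles depends on the limits. It was 1,464 with at least 5 CpGs per tile, 447 with at least 12, 78 with a gap of 15 points, 242 with a liver limit of 2.5 points, 1,346 without the E14.5 limit and 1,616 without the E18.5 limit. Leaving out 1 library gave 647 to 5,053, the high counts where an embryo was left out (2,913 and 5,053 without wild type replicates 1 and 2, 3,927 and 2,989 without mutant replicates 1 and 2), since the gap then rests on fewer values. The count for the exchanged genotypes (24) was 43 with 4 reads per CpG, 118 and 8 with 5 and 12 CpGs, 2 with a gap of 15, 7 with a liver limit of 2.5, 41 and 38 without the E14.5 and E18.5 limits, and 18 to 615 with 1 library left out. Centring each library on its mean over all tiles, chosen after seeing the data, gave 721 tiles (422 shared) and 75 in the exchanged direction. With the mean of per-CpG percentages 409 of 786 tiles were shared and the embryo difference was 13.9 points. The embryo difference ranged from 14.9 to 15.9 with 1 embryo left out. The E18.5 difference ranged from -0.254 to 3.07, the reversed value without mutant replicate 1. The share within 2.5 kb of a TSS was 21.1% with all gene types and 9.03% within 1 kb. Genes called numbered 532 (20 with a chosen tile) without the expression filter, 460 (21) with the replicate block and 66 to 224 (1 to 8) with 1 liver left out. Counting only the gene with the TSS nearest to a chosen tile, and within 10 kb of it, gave 3 called. DESeq2 called 254 (13), and sex as a factor 208 (8). The cause of these changes was not tested. With 2 libraries per genotype and tissue, no independent embryos were left to measure the tiles again.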
